A study of Homo sapiens with 6 samples.

Results

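The genes described here encode the basement membrane of endothelial cells, the enzymes that cut or cross-link it, and the integrins that bind it. They were chosen by name: 39 gene symbols covering basement membrane collagens, laminins, nidogens, proteoglycans, matricellular proteins, lysyl oxidases, metalloproteinases with their inhibitors, and integrin subunits. Each symbol matched 1 of the 45372 Ensembl IDs in the deposited tables. In 38 of the 39 the level reached at least 1 TPM (a level per gene length that adds up to an equal sum in every library) in at least 3 of 6 libraries, as it did for 13680 genes in all. COL15A1 was the exception.

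The study transfected HUVECs, primary endothelial cells of the human umbilical vein, and sequenced their mRNA. The 3 mimic libraries came from cells of WT genotype given the synthetic miR-409-3p mimic at 50 nM, and RNA was taken after 48 h. The 3 control libraries came from WT cells given 50 nM of a non-specific control RNA with the same lipid reagent for 48 h. Sample titles in both groups also carry the words Non Treated, and no other treatment is named. The labels call the replicates biological, and the design text says that 4 technical replicates were pooled for each RNA sample. Whether the replicates came from separate donors or cultures is not given in the sources used here, so the p-values measure the spread between these libraries only. A mimic raises the microRNA far above what a cell makes itself, and its level in the cells was not measured in these mRNA libraries.

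A basement membrane is a thin sheet of matrix on which endothelial cells sit. Laminin heterotrimers, made of an alpha, a beta and a gamma chain, and a separate network of type IV collagen form its layers, and nidogens and the proteoglycan perlecan tie the layers together. Integrins, paired alpha and beta subunits in the cell membrane, bind the sheet and connect it to the actin cytoskeleton. During vessel sprouting, metalloproteinases cut the sheet, inhibitors of the TIMP family restrain them, and new matrix is laid down.

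The sequences behind the question are those of the microRNA and of its possible sites in these genes. A microRNA pairs with target mRNAs through its seed, bases 2 to 8 from the 5′ end. The mature human miR-409-3p, from RefSeq on GRCh38.p14 at chr14:101065346-101065367 on the plus strand, is shown first with its seed in capitals. The lines after it give windows of 30 bases from 3′ UTRs on GRCh38, with coordinates and transcripts from GENCODE 29, written 5′ to 3′ on the strand of the gene. Capitals mark 1 match to the seed (CAACATT) in each window, with the A that follows it where the match is the longest class. MMRN2 has 2 such matches, and the other lies in the same window in lower case. They are shown because these 5 of the 38 genes carry a match to all 7 seed bases.
miR-409-3p: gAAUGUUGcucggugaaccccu
ITGB3 chr17:47311732-47311761 plus strand: ttggtgttgacatacatcCAACATTAaaag
ITGB3 chr17:47311780-47311809 plus strand: gaaaaaaagaaagacttatCAACATTtgtt
MMRN2 chr10:86936274-86936303 minus strand: atggaggcaacattttggcCAACATTggaa
SPARC chr5:151661777-151661806 minus strand: agctccccaatcacactagCAACATTtcaa
THBS1 chr15:39597564-39597593 plus strand: aaattacagtaagtcatagCAACATTcaca
ITGA1 chr5:52953805-52953834 plus strand: tttgctgacatttctgcaaCAACATTtctc

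No basement membrane or integrin gene passed the test between mimic and control cells. The count was 0 of 38 at an adjusted p under 0.05 in limma, against 59 of 13680 genes, or 0.431%. Of all genes, 18 (0.132%) passed as higher and 41 (0.3%) as lower in mimic cells, and these became 33 higher and 54 lower after median-of-ratios scaling and 34 higher and 42 lower after quantile scaling. The 59 became 9 without mimic library 1, 17 without control library 1, 13 without control library 2 and 19 without control library 3. Adjusted p-values of the 38 genes ran between 0.382 and 0.999. Their log2 fold changes, mimic over control on the log2(TPM + 1) scale, lay between -0.14 for LAMA5 and 0.16 for NID2.

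The small differences leaned toward higher levels in mimic cells. The median log2 fold change was 0.045 over the 38 genes and -0.017 over all genes tested, and 24 of the 38 fold changes (63.2%) were above 0, against 43.4% of all genes. An unadjusted p under 0.05 was reached by 3 of the 38 (7.89%) in the higher direction, NID1, NID2 and COL4A5, against a background of 3.05%, or 10.7% of all genes in either direction. None reached it in the lower direction, where the background was 7.64%. Every mimic library lay above every control library for 9 of the 38 (23.7%), against 5.16% of all genes, and in the opposite direction for 0 of 38, against 10.5%.

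This lean changed with single libraries. Control library 1 was the lowest of the 6 libraries for 20 of the 38 genes, while it was the lowest for 24.7% of all genes. Without that library the median log2 fold change was 0.0031 over the 38 genes and -0.036 over all genes tested. None of the 38 then had an unadjusted p under 0.05, against 2.17% of all genes as higher and 9.37% as lower in mimic cells. The count of genes whose groups did not overlap was then 10 higher and 5 lower in mimic cells, against 7.07% and 22.1% of all genes. Mimic library 2 was the highest of the 6 for 18 of the 38 genes, while it was the highest for 24.9% of all genes. Leaving out mimic library 2 also left none of the 38 under an unadjusted p of 0.05. The count was 4 without mimic library 3, 1 without mimic library 1, 1 without control library 2 and 1 without control library 3. For these fits and the fit without mimic library 2, the share of all genes with an unadjusted p under 0.05 is not given. Each rests on fewer libraries, so how far a lower count is particular to these genes cannot be told.

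The data bound the size of a change more than its direction. All 95% intervals except those of COL4A5, NID1 and NID2 reached to both sides of no change. The 95% interval of the fold change on the log2(TPM + 1) scale stayed within 1.2-fold in either direction for 29 of the 38 genes and within 1.5-fold for all 38. On this scale a fold of a low gene is understated: the log2 fold change of ITGB4 was 0.14 with a pseudocount of 1 and 0.22 with a pseudocount of 0.1. The 9 genes with intervals beyond 1.2-fold were COL4A5, NID2, LAMA5, HSPG2, MMRN1, EMILIN1, TIMP3, ITGA1 and ITGB4, of which the last 3 were the least abundant genes tested. Only 2 of 38 intervals stayed within 1.1-fold, so a change of that size was not excluded for the other 36. The coefficient of variation over the 6 libraries had a median of 5.23% and ran between 2.74% for LOXL2 and 21.6% for TIMP3.

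**Figure D1:**
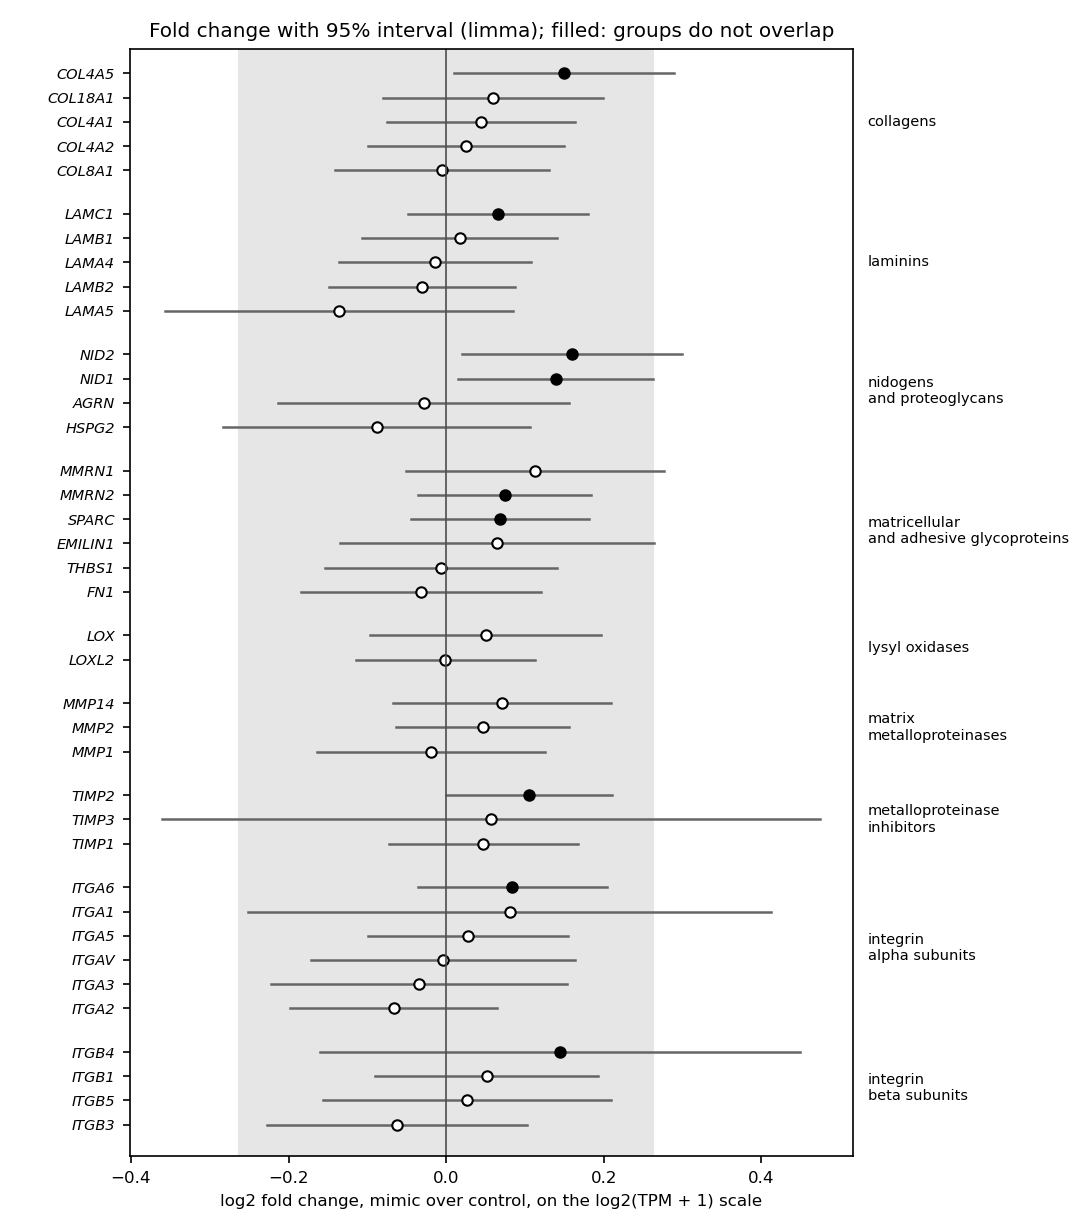
Fold change of each of the 38 tested genes, by role. Points give the log2 fold change of mimic over control on the log2(TPM + 1) scale, lines the 95% interval from limma, filled points the 9 genes whose groups did not overlap, and grey the range within 1.2-fold. All 9 filled points lie right of 0, and 9 intervals reach outside the grey band.

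The depth estimated from the values ran between 29.8 and 35.8 M reads, and the lowest tested member, ITGB4, still had an estimated 87 to 125 reads in each library. Pearson's r across genes was 0.988 to 0.992 between libraries of the same group and 0.988 to 0.991 between groups. All 12 endothelial markers passed the filter, among them PECAM1, CDH5 and VWF, and none passed the test. Their summed level was 6620 to 6873 TPM in mimic libraries and 6357 to 6657 TPM in control libraries. None of the 8 leukocyte and 7 platelet markers reached the filter, and PTPRC, CD3E, GP9 and PPBP were at 0 in all libraries. Platelet markers summed to 0.337 to 0.752 TPM in mimic and 0.192 to 0.492 TPM in control libraries. Of 9 smooth muscle and pericyte markers only RGS5 passed the filter, and the list summed to 500.3 to 541 TPM in mimic and 492 to 513 TPM in control libraries. The 8 fibroblast markers summed to 13.2 to 16.7 TPM in mimic and 13.0 to 16.6 TPM in control libraries. The 7 epithelial markers summed to 261 to 327 TPM in mimic and 307 to 318 TPM in control libraries. Most of the epithelial sum was KRT18, which averaged 264 TPM in mimic cells and 281 TPM in control cells. KRT19 averaged 15.4 TPM in mimic cells and 17.6 TPM in control cells, KRT8 12.9 and 12.7 TPM, and EPCAM 2.09 and 2.14 TPM. KRT5 and KRT14 were at 0 in all libraries, and CDH1 was at 0 in all but mimic library 1. The 6 lymphatic endothelial markers summed to 57.0 to 57.2 TPM in mimic libraries and 51.4 to 54.4 TPM in control libraries, so this sum was higher in every mimic library. Most of it was FLT4, which averaged 33.3 TPM in mimic cells and 31.5 TPM in control cells, and LYVE1, with 21.5 and 19.0 TPM. PROX1 averaged 1.85 TPM in mimic cells and 1.77 TPM in control cells, and PDPN was at 0 in all libraries. The part of the difference in the lymphatic sum in the levels below was not tested. In bulk RNA, fewer cells of a type and less RNA per cell cannot be told apart.

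Together the 39 genes took 2.49 ± 0.0733% of all TPM in mimic cells and 2.47 ± 0.0977% in control cells (SD, n = 3 each). A few transcripts dominated: MMP1 alone held 33.7 ± 0.646% of that sum in mimic cells and 34.4 ± 0.116% in control cells, and THBS1 held 13.7 ± 0.113% in mimic cells and 13.9 ± 0.360% in control cells. MMP1 ranked 5 among all genes by mean TPM, THBS1 22, SPARC 56 and ITGB1 67. At the other end, ITGA1, ITGB4 and TIMP3 were below 10 TPM and COL15A1 was close to 0.

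**Figure D2:**
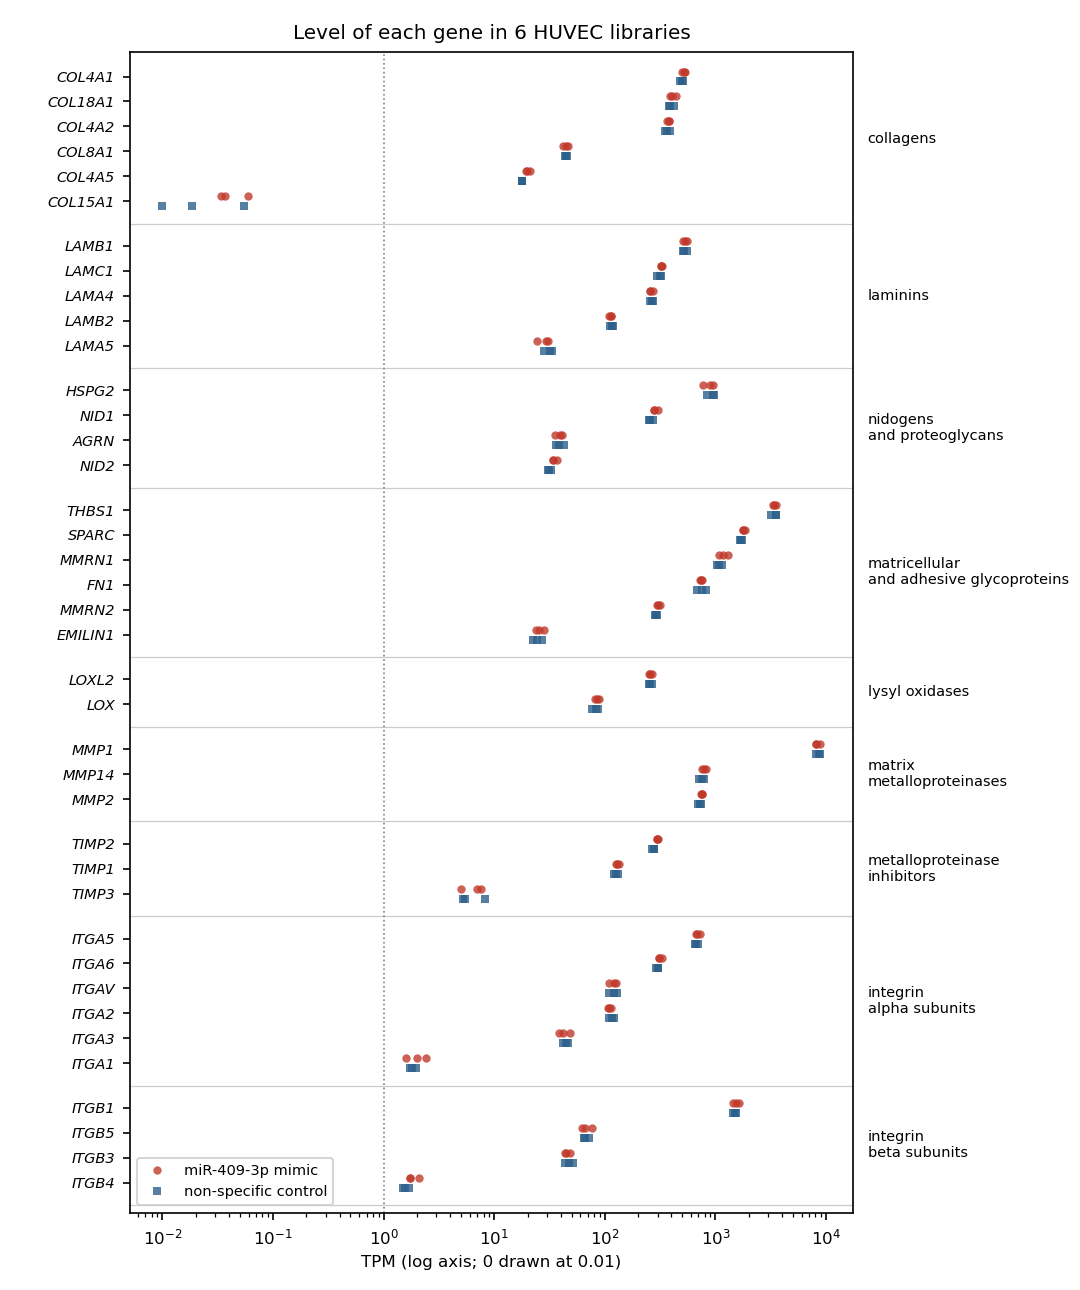
Level of each of the 39 genes in TPM on a log axis, by role. Circles are the 3 mimic libraries and squares the 3 control libraries, drawn just below them, and the dotted line marks 1 TPM. Levels span the range between COL15A1, near 0, and MMP1, at 8143 TPM or more in the mimic libraries, and for most genes the groups sit on top of each other.

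Among the collagens, COL4A1 and COL4A2, the chains of the common type IV collagen network, were abundant and alike in both groups. COL4A1 had 515, 532 and 493 TPM in the mimic libraries, against 479, 513 and 502 TPM in the control libraries. The groups overlapped, and the log2 fold change was 0.044 ± 0.052 (SE), with an adjusted p of 0.896 in limma. COL4A2 averaged 374 ± 8.77 TPM in mimic cells and 368 ± 19.8 TPM in control cells (SD, n = 3 each). The ratio of COL4A1 to COL4A2 was 1.37 ± 0.0838 in mimic cells and 1.35 ± 0.0372 in control cells, a difference below the spread between replicates.

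The pair is transcribed from a shared promoter in opposite directions, and it is printed here because both genes of this promoter were measured. The RefSeq starts on GRCh38.p14 lie 127 bases apart on chromosome 13, and the 300-base promoter windows share 226 bases. The COL4A2 window, chr13:110307034-110307333 on the plus strand, also contains the start of COL4A1, which is read from the other strand. Capitals mark a GC box (GGGCGG) and a CCAAT box, searched on both strands.
COL4A2 promoter: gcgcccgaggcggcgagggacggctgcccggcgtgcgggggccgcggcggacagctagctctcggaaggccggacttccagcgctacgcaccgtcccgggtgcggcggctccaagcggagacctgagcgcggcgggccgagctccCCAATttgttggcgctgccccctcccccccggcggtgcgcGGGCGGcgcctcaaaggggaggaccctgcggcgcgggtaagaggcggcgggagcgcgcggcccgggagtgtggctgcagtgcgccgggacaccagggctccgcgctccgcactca
This window holds GGGCGG 1 time, CCAAT 1 time and no TATAAA. Of 35116 RefSeq promoter windows of the same length, 45% held GGGCGG, 34.6% CCAAT and 11.5% TATAAA on either strand. The matches describe the letters only, and binding was not measured.

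COL4A5, a chain of the type IV collagen network best known from kidney and other specialised basement membranes, was the collagen with the largest difference. It had 19.6, 20.9 and 19.3 TPM in the mimic libraries, against 17.99, 17.76 and 17.81 TPM in the control libraries. All mimic libraries were above all control libraries, and the controls were almost equal. The log2 fold change was 0.15 ± 0.061 (SE), with an unadjusted p of 0.0388 and an adjusted p of 0.421 in limma.

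The other collagens gave no difference beyond their spread. COL18A1, whose C-terminal fragment is endostatin, averaged 413 ± 24.3 TPM in mimic cells and 396 ± 19.7 TPM in control cells. COL8A1, a short-chain network collagen of vessel walls, averaged 44.3 ± 2.41 TPM in mimic cells and 44.4 ± 1.12 TPM in control cells. COL15A1, a collagen at the outer face of basement membranes, was not tested. Its level was 0.037, 0.034 and 0.060 TPM in mimic libraries and 0.054, 0.018 and 0 TPM in control libraries, which corresponds to an estimated 0 to 3 reads per library.

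Laminin transcripts were led by LAMB1, LAMC1 and LAMA4, the chains of the laminin typical of endothelium. LAMB1 had 532, 553 and 511 TPM in the mimic libraries, against 509, 518 and 551 TPM in the control libraries. The groups overlapped widely, with a log2 fold change of 0.017 ± 0.054 (SE) that turned negative, to -0.0011, after quantile scaling. Exons of LAMB1 overlap those of DLD on the other strand, and whether strand was used in counting is not given in the sources used here.

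LAMC1, the gamma chain that nearly all endothelial laminins contain, had 322, 329 and 324 TPM in the mimic libraries, against 296, 317 and 320 TPM in the control libraries. Every mimic library was higher, but mimic library 1 exceeded control library 3 only narrowly. The log2 fold change was 0.066 ± 0.050 (SE), with an unadjusted p of 0.222 and an adjusted p of 0.762 in limma. LAMA5, the alpha chain of the other main endothelial laminin, had 29.4, 24.6 and 30.7 TPM in the mimic libraries, against 28.0, 33.1 and 32.1 TPM in the control libraries. The groups overlapped, and mimic library 2 was the lowest of the 6. Its log2 fold change of -0.14 ± 0.097 (SE) was the lowest of the set, with an adjusted p of 0.732 in limma.

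LAMA4 averaged 262 ± 9.99 TPM in mimic cells and 264 ± 10.3 TPM in control cells, and LAMB2 averaged 113 ± 3.23 TPM in mimic cells and 115 ± 4.15 TPM in control cells. LAMA4 made up 90.2 ± 1.32% of the sum of LAMA4 and LAMA5 in mimic cells and 89.5 ± 0.578% in control cells. LAMB1 made up 82.5 ± 0.952% of the sum of LAMB1 and LAMB2 in mimic cells and 82.0 ± 0.233% in control cells. The sum of both alpha chains over LAMC1 was 0.887, 0.904 and 0.882 in the mimic libraries, against 0.951, 0.942 and 0.958 in the control libraries. The groups did not overlap on this ratio, which was lower in mimic cells, although the groups overlapped for each alpha chain by itself. With 3 libraries against 3, an exact two-sided permutation test cannot give a p below 0.1, and this was 1 of 27 sums and ratios computed, of which 2 were higher and 2 lower in mimic cells with no overlap.

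Both nidogens, the linkers between laminin and type IV collagen, were slightly higher in every mimic library. NID1 had 279, 299 and 277 TPM in the mimic libraries, against 253, 254 and 271 TPM in the control libraries. NID2 had 34.1, 37.2 and 34.2 TPM in the mimic libraries, against 30.5, 32.6 and 31.0 TPM in the control libraries. For both genes the groups were apart and mimic library 2 was the highest. The log2 fold change of NID1 was 0.14 ± 0.054 (SE), with an unadjusted p of 0.0322 and an adjusted p of 0.392 in limma. That of NID2 was 0.16 ± 0.061 (SE), with an unadjusted p of 0.0294 and an adjusted p of 0.382, the lowest adjusted p of the 38 genes. Exons of NID2 overlap those of RTRAF on the other strand. NID1 over LAMC1 was 0.877 ± 0.0287 in mimic cells and 0.833 ± 0.0280 in control cells. These groups did not overlap, but only narrowly, with 0.855 in mimic library 3 and 0.853 in control library 1.

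The proteoglycans varied more than they differed. HSPG2, which encodes perlecan, had 892, 771 and 941 TPM in the mimic libraries, against 844, 942 and 979 TPM in the control libraries. Mimic library 2 was the lowest and control library 3 the highest, and the groups overlapped. Its log2 fold change was -0.088 ± 0.086 (SE), with an adjusted p of 0.848 in limma. AGRN, which encodes agrin, averaged 38.4 ± 3.07 TPM in mimic cells and 39.2 ± 3.19 TPM in control cells.

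The matricellular and adhesive glycoproteins included some of the most abundant transcripts of the cells. THBS1, encoding the antiangiogenic protein thrombospondin 1, had 3357, 3549 and 3313 TPM in the mimic libraries, against 3170, 3549 and 3558 TPM in the control libraries. The highest and the lowest values both belonged to controls. Its log2 fold change was -0.0067 ± 0.064 (SE), with an adjusted p of 0.989 in limma, and became 0.013 after median-of-ratios and -0.080 after quantile scaling. SPARC, a collagen-binding glycoprotein, had 1762, 1840 and 1766 TPM in the mimic libraries, against 1678, 1748 and 1693 TPM in the control libraries. All mimic libraries were above all control libraries, by little, with a log2 fold change of 0.068 ± 0.049 (SE) and an adjusted p of 0.744 in limma.

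The multimerins are large secreted proteins of endothelium, and MMRN1 is also stored in platelets. MMRN1 had 1159, 1285 and 1080 TPM in the mimic libraries, against 1073, 1042 and 1138 TPM in the control libraries. Mimic library 2 stood highest, and the groups overlapped, with a log2 fold change of 0.11 ± 0.072 (SE) and an adjusted p of 0.683 in limma. MMRN2, an endothelial ligand of CLEC14A and CD93, had 305, 299 and 317 TPM in the mimic libraries, against 290, 298 and 285 TPM in the control libraries. The groups were apart by less than 1 TPM, between mimic library 2 and control library 2. Its log2 fold change was 0.074 ± 0.048 (SE), with an adjusted p of 0.697 in limma. FN1, fibronectin, averaged 734 ± 14.6 TPM in mimic cells and 752 ± 64.3 TPM in control cells, and EMILIN1, an elastic fibre protein, 25.8 ± 2.32 TPM in mimic cells and 24.6 ± 2.20 TPM in control cells.

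The lysyl oxidases, which cross-link collagens, were level between the groups. LOX had 84.5, 89.0 and 80.9 TPM in the mimic libraries, against 76.3, 82.8 and 86.7 TPM in the control libraries. LOXL2, which cross-links type IV collagen, had 257, 251 and 267 TPM in the mimic libraries, against 253, 267 and 256 TPM in the control libraries. The groups overlapped for both. Log2 fold changes were 0.050 ± 0.064 (SE) for LOX and -0.00077 ± 0.050 (SE) for LOXL2, with adjusted p-values of 0.906 and 0.999 in limma, and LOXL2 became 0.019 after median-of-ratios scaling. The ratio of LOXL2 to LOX was 3.06 ± 0.241 in mimic cells and 3.16 ± 0.186 in control cells.

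Of the metalloproteinases, MMP1, the interstitial collagenase, was the most abundant of all 39 genes. It had 8173, 8867 and 8143 TPM in the mimic libraries, against 8119, 8633 and 8761 TPM in the control libraries. The groups overlapped over nearly their whole range. The log2 fold change was -0.019 ± 0.063 (SE), with an adjusted p of 0.972 in limma, and its sign changed with the scaling, to 0.0010 after median-of-ratios and 0.061 after quantile scaling.

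MMP14, a membrane-bound protease that activates MMP2, had 754, 825 and 787 TPM in the mimic libraries, against 704, 790 and 759 TPM in the control libraries. The groups overlapped, and control library 1 was the lowest, with a log2 fold change of 0.071 ± 0.061 (SE) and an adjusted p of 0.811 in limma. MMP2, a gelatinase that cuts type IV collagen, averaged 749 ± 10.9 TPM in mimic cells and 726 ± 22.9 TPM in control cells.

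Among the inhibitors, TIMP2, which also takes part in the activation of MMP2 by MMP14, had 296, 300.2 and 295 TPM in the mimic libraries, against 268, 280.1 and 280.5 TPM in the control libraries. All mimic libraries were above all control libraries, and the replicates of each group were close together. The log2 fold change was 0.10 ± 0.046 (SE), with an unadjusted p of 0.0508 and an adjusted p of 0.468 in limma. Exons of TIMP2 overlap those of CEP295NL on the same strand. TIMP1 averaged 130 ± 3.15 TPM in mimic cells and 125 ± 5.43 TPM in control cells, and the matrix-bound TIMP3 6.54 ± 1.35 TPM in mimic cells and 6.29 ± 1.71 TPM in control cells.

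The 3 inhibitors together had 432, 440.1 and 427 TPM in the mimic libraries, against 404, 405 and 414 TPM in the control libraries, with no overlap. MMP2 over TIMP2 was 2.52 ± 0.0594 in mimic cells and 2.63 ± 0.0302 in control cells, with every mimic library lower. MMP14 over TIMP2 was 2.65 ± 0.0983 in mimic cells and 2.72 ± 0.0977 in control cells, and overlapped.

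Integrin alpha subunits were led by ITGA5, which with ITGB1 forms the main fibronectin receptor. ITGA5 had 675, 662 and 725 TPM in the mimic libraries, against 657, 702 and 663 TPM in the control libraries. The groups overlapped, with a log2 fold change of 0.028 ± 0.056 (SE) and an adjusted p of 0.950 in limma. ITGA6, the laminin-binding alpha subunit, had 306, 332 and 307 TPM in the mimic libraries, against 288, 302 and 302 TPM in the control libraries. Every mimic library was higher, with a log2 fold change of 0.084 ± 0.053 (SE) and an adjusted p of 0.679 in limma. ITGA5 made up 53.8 ± 1.87% of the summed alpha subunits in mimic cells and 53.9 ± 1.07% in control cells, and ITGA6 24.7 ± 1.25% in mimic cells and 23.7 ± 0.274% in control cells.

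The remaining alpha subunits had overlapping groups. ITGAV, the alpha subunit of the RGD-binding receptors, averaged 119 ± 8.26 TPM in mimic cells and 119 ± 8.83 TPM in control cells. ITGA2, of a collagen receptor, averaged 110 ± 3.15 TPM in mimic cells and 115 ± 6.54 TPM in control cells. ITGA3, of a laminin receptor, averaged 43.0 ± 4.57 TPM in mimic cells and 43.9 ± 2.40 TPM in control cells.

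Among the beta subunits, ITGB1, the partner of most alpha subunits on this list, had 1538, 1646 and 1442 TPM in the mimic libraries, against 1434, 1496 and 1528 TPM in the control libraries. The groups overlapped, and the log2 fold change was 0.051 ± 0.062 (SE), with an adjusted p of 0.896 in limma. It made up 92.98 ± 0.725% of the summed beta subunits in mimic cells and 92.7 ± 0.365% in control cells. ITGB4, the partner of ITGA6 in hemidesmosomes of epithelia, had 1.75, 2.08 and 1.74 TPM in the mimic libraries, against 1.55, 1.69 and 1.503 TPM in the control libraries. The groups were apart, at a level near the filter, with a log2 fold change of 0.14 ± 0.13 (SE) and an adjusted p of 0.832 in limma. ITGB5, which pairs with ITGAV, averaged 68.7 ± 7.27 TPM in mimic cells and 67.2 ± 3.48 TPM in control cells.

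None of the 5 genes with a match to the whole seed passed the test in either direction. ITGB3, the partner of ITGAV in a receptor of sprouting vessels, has the longest match of the set in the 3′ UTRs of the longest coding transcripts. It had 44.1, 48.3 and 44.0 TPM in the mimic libraries, against 43.9, 51.4 and 47.3 TPM in the control libraries. The groups overlapped, with a log2 fold change of -0.062 ± 0.072 (SE) and an adjusted p of 0.891 in limma. ITGA1, of a collagen receptor, has 3 matches to the whole seed, and it had 2.02, 2.41 and 1.60 TPM in the mimic libraries, against 1.82, 1.73 and 1.95 TPM in the control libraries. Its groups overlapped too, and its exons overlap those of PELO on the same strand. MMRN2, with 2 matches to the whole seed, and SPARC, with 1, were among the 9 genes higher in every mimic library, and THBS1 was level.

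A match to all 7 seed bases was found in 5 of the 38 genes (13.2%), against 11.3% of 11852 genes searched. The median log2 fold change of these 5 genes was 0.068, and that of all genes with such a match was -0.018. A further 2 genes, ITGB5 and TIMP3, held a 7-base match ending in A (AACATTA), 9 held AACATT only and 22 held none. With the longest annotated 3′ UTR in place of that of the longest coding transcript, COL4A1 joined as the 6th gene, and 13.3% of all genes had such a match. Of these 6 genes, 2 then held the longest class of match (CAACATTA), against 1 with the longest coding transcript. Matching letters describe a possible site, and binding was not measured.

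Libraries of the same group also differed from each other along the GC content of the transcripts, in both groups. Across the 38 genes, the deviation of a library from its group mean had a Pearson r with transcript GC of 0.030, -0.755 and 0.690 in mimic libraries 1 to 3 and of -0.069, 0.557 and -0.403 in control libraries 1 to 3. Across 11966 genes the values were 0.018, -0.540 and 0.542 in the mimic libraries and 0.055, 0.201 and -0.262 in the control libraries. These are correlations across genes within a library, and genes are not independent replicates. Deviations within a group cancel out for each gene, so the opposite trends of mimic libraries 2 and 3 are tied to each other. The 19 genes with the lower GC (37.6% to 52.0%) were all above the group mean in mimic library 2, and 13 of the 19 with the higher GC (52.3% to 67.6%) were below it. NID1, NID2 and MMRN1 were highest, and HSPG2, AGRN and LAMA5 lowest, in that library.

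**Figure D3:**
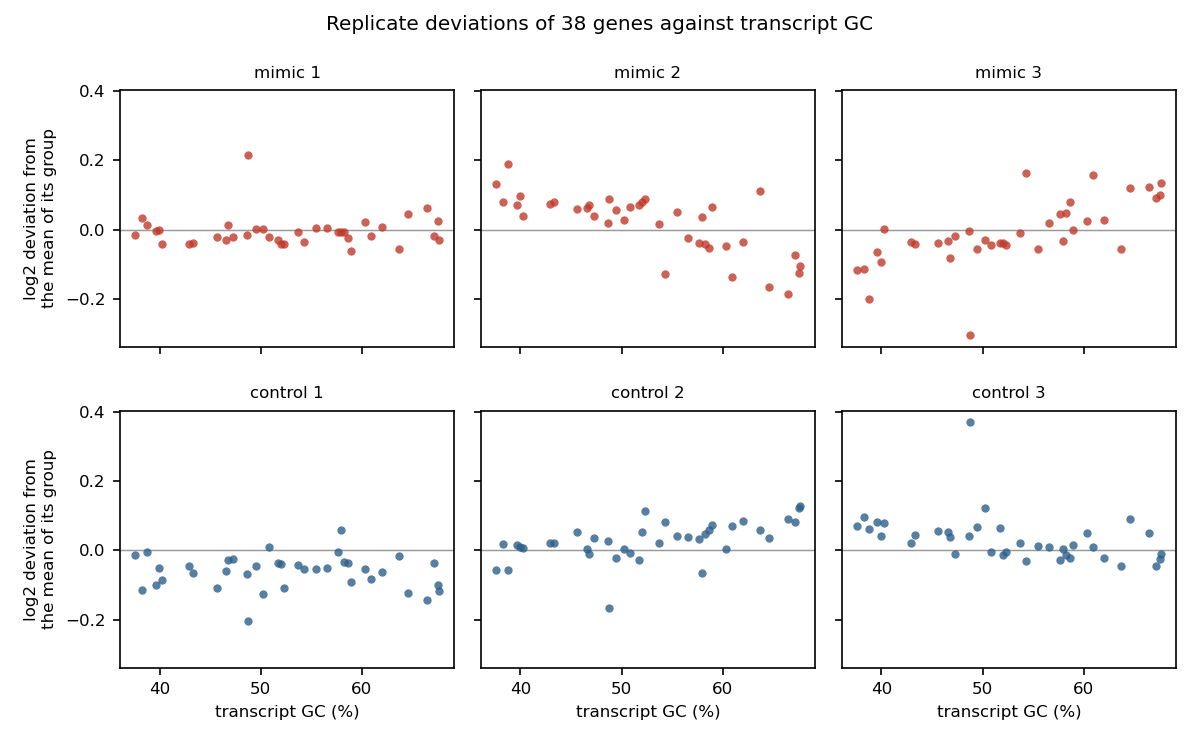
Deviation of each library from the mean of its group, on the log2(TPM + 1) scale, against transcript GC in percent, for the 38 tested genes. The upper row holds mimic libraries and the lower row control libraries. Points slope down in mimic library 2 (r = -0.755) and up in mimic library 3 (r = 0.690). These slopes are tied, because deviations within a group cancel out for each gene.

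With the GC trend of each library removed, an alternative chosen after seeing the data, still none of the 38 genes passed at an adjusted p under 0.05, while 405 of 11966 genes did (3.38%). The lowest adjusted p among the 38 was 0.0758 in limma, for NID2, whose log2 fold change was then 0.18 ± 0.046 (SE). An unadjusted p under 0.05 was reached by 8 genes, all higher in mimic cells: NID1, NID2, COL4A5, TIMP2, ITGA6, LAMC1, MMRN1 and MMRN2, against a background of 8.41%. The groups did not overlap for 15 genes, all higher in mimic cells, against 12.6% of all genes. The part of GC in the levels of single genes was not tested further.

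**Figure D4:**
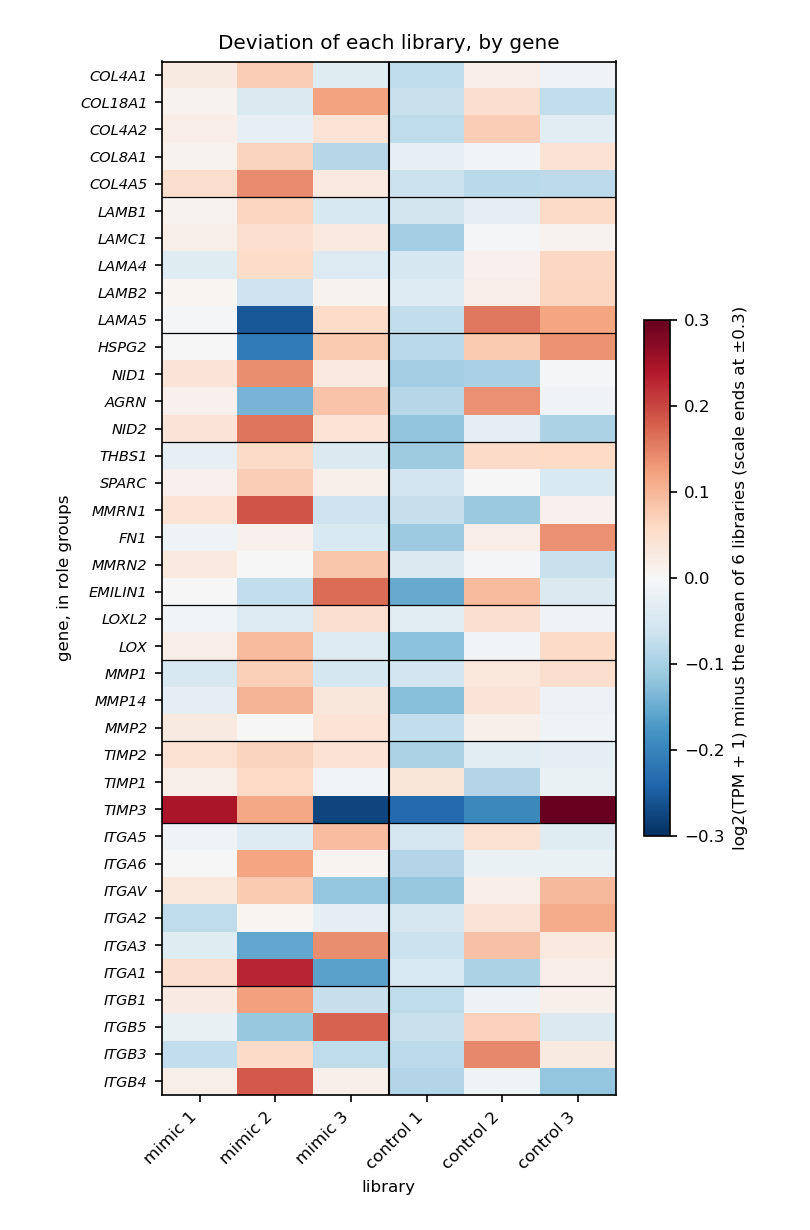
Deviation of each library from the mean of all 6, on the log2(TPM + 1) scale, for the 38 tested genes in role groups, with mimic libraries left of control libraries. Red is above and blue below the mean, and the colour scale ends at 0.3. Control library 1 is blue in most rows, and mimic library 2 is red for NID1, NID2 and MMRN1 and blue for LAMA5, HSPG2 and AGRN.

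The wider matrix and adhesion genes held no call either. Of 132 further genes in 7 lists (other collagens, laminin chains, integrin subunits, matrix receptors, collagen-modifying enzymes, proteases and matricellular proteins), 88 reached the filter and 0 passed at an adjusted p under 0.05 in limma. An unadjusted p under 0.05 was reached by 3 of the 88 as higher and 1 as lower, against 3.05% and 7.64% of all genes. The groups did not overlap for 6 of the 88 as higher and 4 as lower, against 5.16% and 10.5% of all genes. COL5A2, a chain of a fibril-forming collagen, averaged 148 ± 5.53 TPM in mimic cells and 134 ± 1.19 TPM in control cells, with an adjusted p of 0.336 in limma. LAMB3, a laminin chain of epithelial basement membranes, was the lower one. It averaged 7.61 TPM in mimic cells and 9.32 TPM in control cells, with an adjusted p of 0.379 in limma.

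CCN2, a matricellular protein, averaged 3548 ± 51.2 TPM in mimic cells and 2966 ± 251 TPM in control cells, with a log2 fold change of 0.26 and an adjusted p of 0.179 in limma. MMP28, a secreted metalloproteinase, averaged 5.81 TPM in mimic cells and 4.48 TPM in control cells, with an adjusted p of 0.250. ITGAM and ITGAD, alpha subunits of leukocyte integrins, were at 0 in all libraries, while ITGAE, another leukocyte subunit, averaged 9.82 TPM in mimic cells and 9.52 TPM in control cells. COL4A3 and COL4A4, the partners of COL4A5 in the kidney network, were at 0 in every library except control library 3, where COL4A4 had 0.0115 TPM.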

How the data were processed

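Each library has its own deposited table of TPM values by Ensembl gene ID, made by the authors, per the file headers. mRNA enriched from 500 ng of RNA was fragmented with an enzyme, amplified with 13 cycles of PCR and read with 75 cycles from 1 end, per the labels' protocols. Per the submitters' processing notes, the builds were hg38 and GRCh38.p13. No aligner, counting program, annotation or strand setting is named in those sources.

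Groups came from the sample titles. limma 3.58.1 in R 4.3.3, with a trended prior variance and group as the only term, was run on log2(TPM + 1), where the pseudocount of 1 understates changes of low genes. The filter asked for 1 TPM or more in 3 or more libraries of 6. Tests were two-sided and adjusted by Benjamini-Hochberg over all 13680 genes left, with a threshold of 0.05. The test was checked on simulated data with independent noise for each gene and library. Those data held no GC trend, so the check does not cover the GC trends of these libraries. Depth was estimated from the smallest steps of the TPM values times GENCODE 29 exon lengths, which were whole reads within 0.02 reads for 76.2% to 77.8% of low values. It counts PCR copies too.

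Positions and 3′ UTRs came from GENCODE 29 on GRCh38, and the microRNA and promoter sequences from RefSeq on GRCh38.p14. Exon overlaps with other genes are named above for some genes only. On the same strand, MMRN2 also overlaps ADIRF-AS1 and LOXL2 overlaps ENTPD4. LAMA5, AGRN, MMP2 and ITGB3 overlap other annotated genes there too, and many of the 39 genes overlap genes on the other strand. Seed sites were searched in the 3′ UTR of the transcript with the longest coding sequence. Values per library are given for genes with an unadjusted p under 0.05, genes whose groups did not overlap, and the most abundant and most different gene of each role. ITGB3, ITGA1 and COL15A1 were added for their sites or their level. The genes and lists were chosen with earlier results of these data known. Alternatives were other pseudocounts, filters, prior variances and scalings, the replicate block, leaving out each library, removal of a GC trend (lowess) and the longest 3′ UTR.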

Additional observations from a re-analysis of the deposited data

How the results depend on the processing

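The count of 0 basement membrane and integrin genes at an adjusted p under 0.05 held under all 17 alternatives run. The count over all genes, 59, was 11 with no filter on low values, 115 with a filter of 5 TPM, 20 with an untrended and 119 with a robust prior variance, 199 over genes with a GC value only, 405 with the GC trend removed, and 9 to 45 with a library left out. Of the genes described, 3 had an unadjusted p under 0.05 in the main fit. The count was 5 after median-of-ratios scaling, 8 with the GC trend removed and 0 to 4 with a library left out. The 8 were all higher, against 8.41% of all genes in that fit and 3.05% in the main fit. Those whose groups did not overlap numbered 15 with the GC trend removed and 9 to 15 with a library left out, against 9. With the GC trend removed the 15 were all higher, against 12.6% of all genes and 5.16% in the main fit. Without control library 1 the 15 were 10 higher and 5 lower, against 7.07% and 22.1% of all genes. Shares of all genes for the other counts are not given here. The median log2 fold change of the genes described lay between 0.0031 and 0.057 with a library left out, against 0.045. Replicate numbers are shared between the groups, and deviations of same-numbered libraries correlated at 0.031, -0.087 and -0.112. These values cannot tell whether the numbers pair libraries, because the deviations also carry the GC trends of single libraries. With the replicate block, 14 of all genes passed and 1 of the genes described had an unadjusted p under 0.05. Of the 21 genes named by the rule on values per library, 16 kept their sign under every alternative run, with ITGB4 left out by the filter of 5 TPM. LOXL2 became 0.019 with median-of-ratios scaling and 0.024 with the GC trend removed, THBS1 0.013 and 0.011, and MMP1 0.0010 and 0.0013. With quantile scaling MMP1 became 0.061, LAMB1 -0.0011 and THBS1 -0.080. With a library left out the ranges were -0.025 to 0.023 for LOXL2, -0.062 to 0.022 for THBS1, -0.059 to 0.0027 for MMP1, -0.011 to 0.050 for LAMB1 and -0.012 to 0.057 for ITGA5. Others kept their sign but moved: HSPG2 lay between -0.15 and -0.0052, LAMA5 between -0.21 and -0.042, ITGB1 between 0.0032 and 0.099 and LOX between 0.00067 and 0.091. The causes of these moves were not tested. Depth limits ITGB4, ITGA1 and TIMP3 most, and COL15A1 could not be tested.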
